A study of Mus musculus with 10 samples.

Results

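The regions described here are distal intergenic stretches of open sperm chromatin that hold almost no annotated repeat. To obtain them, the peaks of 10 libraries were merged wherever they overlapped by at least 1 bp, which gave 113493 merged regions, and the 24763 regions found in at least 2 libraries were kept as consensus regions. Of the 24550 consensus regions on chromosomes 1 to 19, 10548 were distal, that is, they lay more than 3 kb from every annotated transcript start and overlapped no transcript. A distal region was taken as repeat-free when less than 10% of its bases were repeat-masked in the mm10 genome and it held no run of 10 or more CA or TG units. This rule left 1099 repeat-free distal regions, 10.4% of the distal regions and 4.44% of all consensus regions. They covered 413 kb.

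The libraries are ATAC-seq of mature sperm from the cauda epididymis of wild-type C57BL/6JRccHsd male mice, 1 library per mouse. In ATAC-seq a transposase cuts and tags accessible DNA, and peaks mark where cuts accumulate. The F0 CD group (6 mice) was kept on a standard chow diet and the F0 WD group (4 mice) on a Western diet rich in fat and carbohydrate, #D12079B, each for 6 months, and the study asked whether paternal diet leaves a trace in sperm chromatin. The sample titles give these group sizes, and the protocol text deposited with the samples states them the other way round. The peak names inside the lists are codes that name no diet, so the diet of each library rests on the sample record it was deposited under.

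During the last phase of sperm formation most histones are exchanged for protamines, and the nucleus becomes far more compact than that of a somatic cell. A small part of the genome keeps nucleosomes, and accessible sites in mature sperm are studied as places where information on the father's environment could persist. In somatic cells, accessible sites far from genes are mostly enhancers and insulators, which carry motifs of the factors that bind them. Tandem repeats are stretches in which a unit of sequence follows itself head to tail, and those with long or degraded units are often missed by repeat masking.

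The sequences below are shown because the regions that recurred in most libraries differed in one visible feature, internal repetition. Each is a window of 160 bp around the strongest peak summit, on the forward strand of the mm10 (GRCm38) genome. In the first 6, capitals mark each base that equals the base 1 best shift before or after it, the shift at which most bases of the window match. The windows are chr2:3964475-3964634 near Frmd4a (best shift 42 bp), chr4:118548571-118548730 near Tmem125 (44 bp), chr3:142191702-142191861 near Bmpr1b (36 bp), chr17:72867000-72867159 near Ypel5 (14 bp), chr6:4762391-4762550 near Peg10 (19 bp) and chr12:32895879-32896038 near Sypl (70 bp). The first 4 lay in regions found in all 10 libraries, the Peg10 region was found in 9, and the Sypl region only in the 4 F0 WD libraries.
Frmd4a: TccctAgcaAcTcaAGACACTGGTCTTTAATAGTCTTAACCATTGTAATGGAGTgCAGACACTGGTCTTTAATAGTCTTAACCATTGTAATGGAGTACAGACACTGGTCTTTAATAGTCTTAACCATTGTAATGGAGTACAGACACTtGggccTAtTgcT
Tmem125: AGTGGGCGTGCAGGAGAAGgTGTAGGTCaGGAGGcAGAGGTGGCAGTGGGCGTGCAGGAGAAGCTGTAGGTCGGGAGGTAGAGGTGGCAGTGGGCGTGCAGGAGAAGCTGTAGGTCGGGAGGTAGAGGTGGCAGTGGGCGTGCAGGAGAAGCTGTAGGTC
Bmpr1b: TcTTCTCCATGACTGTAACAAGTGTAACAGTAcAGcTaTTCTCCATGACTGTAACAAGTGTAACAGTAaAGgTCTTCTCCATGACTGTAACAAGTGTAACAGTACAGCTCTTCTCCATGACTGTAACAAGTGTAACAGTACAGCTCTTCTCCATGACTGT
Ypel5: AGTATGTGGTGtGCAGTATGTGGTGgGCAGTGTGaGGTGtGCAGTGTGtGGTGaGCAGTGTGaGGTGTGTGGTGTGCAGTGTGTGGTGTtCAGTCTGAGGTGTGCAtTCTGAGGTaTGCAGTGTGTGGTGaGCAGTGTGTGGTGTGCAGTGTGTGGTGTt
Peg10: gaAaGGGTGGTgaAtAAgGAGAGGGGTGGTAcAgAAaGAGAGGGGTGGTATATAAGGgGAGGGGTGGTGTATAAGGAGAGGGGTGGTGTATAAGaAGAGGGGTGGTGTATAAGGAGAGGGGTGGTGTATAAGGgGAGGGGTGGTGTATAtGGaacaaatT
Sypl: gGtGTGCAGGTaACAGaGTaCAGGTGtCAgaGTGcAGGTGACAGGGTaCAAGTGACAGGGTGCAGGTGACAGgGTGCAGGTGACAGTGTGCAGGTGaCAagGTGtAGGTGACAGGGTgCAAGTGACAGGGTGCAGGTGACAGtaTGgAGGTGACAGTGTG

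The next 5 windows came from summit windows of 200 bp in which no shift matched as many as 50% of the bases. In the first 3, capitals mark CpG dinucleotides: chr11:109011874-109012033 near Axin2 and chr6:3201417-3201576 near Samd9l, from regions found in all 10 libraries, and chr12:109527366-109527525 between the imprinted genes Dlk1 and Meg3, from a region found in 4. In the last 2, capitals mark the word CACTG or its reverse complement CAGTG, which is described further on: chr11:6870190-6870349 near Gm11984, from a region found in 5 libraries, all of them F0 CD, and chr3:10478094-10478253 near Snx16, from a region found in all 10.
Axin2: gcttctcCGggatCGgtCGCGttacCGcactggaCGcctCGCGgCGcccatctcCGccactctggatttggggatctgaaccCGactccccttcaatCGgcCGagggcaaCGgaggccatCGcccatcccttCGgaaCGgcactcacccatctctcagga
Samd9l: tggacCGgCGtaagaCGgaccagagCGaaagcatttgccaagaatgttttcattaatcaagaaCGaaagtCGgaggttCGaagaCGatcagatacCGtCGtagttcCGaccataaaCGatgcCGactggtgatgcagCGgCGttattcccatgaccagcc
Dlk1-Meg3: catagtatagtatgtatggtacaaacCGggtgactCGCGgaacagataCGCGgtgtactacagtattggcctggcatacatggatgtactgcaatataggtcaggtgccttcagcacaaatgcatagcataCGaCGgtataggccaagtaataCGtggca
Gm11984: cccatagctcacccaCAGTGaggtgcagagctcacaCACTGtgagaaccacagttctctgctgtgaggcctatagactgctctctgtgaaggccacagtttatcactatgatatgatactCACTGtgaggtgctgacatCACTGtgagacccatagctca
Snx16: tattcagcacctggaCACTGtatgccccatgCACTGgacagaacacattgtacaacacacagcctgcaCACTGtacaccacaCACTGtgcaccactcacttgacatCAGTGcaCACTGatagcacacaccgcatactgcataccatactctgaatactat

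The repeat-free distal regions were short and far from genes. Their width ranged from 200 to 1374 bp with a median of 344 bp. The distance to the nearest transcript start had a median of 22055 bp and reached 346425 bp. More than 10 kb separated 843 regions (76.7%) from any start, and more than 100 kb separated 95 (8.64%). No masked base at all was present in 628 regions (57.1%). At the edges of the rule, the highest masked share inside was 9.95% and the lowest outside was 10%, with 441 run-free distal regions between 10 and 20% masked. The nearest starts inside and outside the distance limit were at 3001 and 2997 bp.

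The 3 regions farthest from any start were chr19:15307191-15307643 at 346425 bp, chr3:40189466-40189670 at 320104 bp and chr11:91276603-91276981 at 300577 bp, and each was found in 2 libraries. The first had 11 reads at its summit in F0 CD 2 and 16 in F0 WD 3, the second 10 in F0 CD 2 and 16 in F0 CD 6, and the third 13 in F0 CD 4 and 19 in F0 CD 5. In those libraries the weakest called summit had 9 to 12 reads, and the median summit of a repeat-free distal region had 13 to 17.

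Most repeat-free distal regions were seen in few mice. Of the 1099, 769 (69.97%) had a peak in 2 libraries, 195 in at least 4, 54 in at least 8 and 19 in all 10. The share found in at least 4 libraries was 17.7%, against 43.4% of the 5060 distal regions with a CA or TG run, 35.4% of the 4389 distal regions with other repeats and 15.5% of the 1412 intronic regions that were as free of repeats. The curves of the repeat-free distal and the repeat-free intronic regions therefore lay close together, and both fell faster than those of the repeat classes. By group, 365 regions had peaks only in F0 CD libraries, 85 only in F0 WD libraries and 649 in both, with 6 libraries in the first group and 4 in the second. A region found in 2 libraries falls more easily within the larger group, and the same counts are not given for all consensus regions. The counts by group are therefore not read as a difference between diets.

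**Figure D1:**
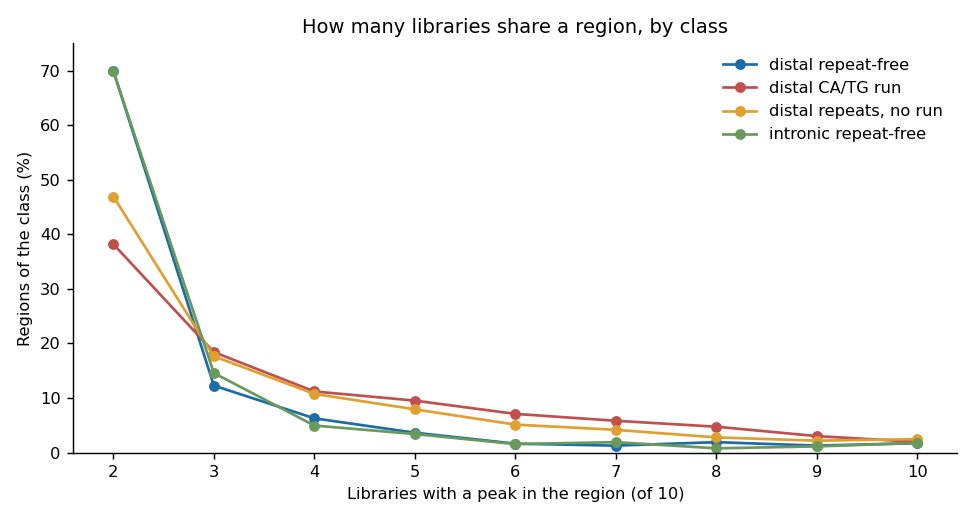
The share of regions in each class (y axis, percent) is plotted against the number of libraries with a peak in the region (x axis, 2 to 10), with 1 line per class. Repeat-free distal and intronic regions both start at about 70% in 2 libraries, whereas the CA or TG run class starts at 38.2% and the class of other repeats at 46.9%.

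Detection was then compared library by library. The repeat-free distal regions were detected at 22.8, 43.6, 34.3, 26.5, 24.0 and 32.2% in F0 CD 1 to 6 and at 28.5, 22.9, 26.02 and 22.0% in F0 WD 1 to 4. F0 CD 2, the library with the most peaks, was highest, and the other libraries of both groups overlapped. The detected share of distal regions with a CA or TG run was higher in 9 of 10 libraries, with a mean difference of -10.9 percentage points (SD 6.66 over 10 libraries; exact sign-flip permutation test, two-sided, p = 0.00391, Benjamini-Hochberg adjusted over 9 tests p = 0.00586). Against distal regions with other repeats the difference was -7.31 points (SD 4.50), again lower in 9 of 10 libraries (p = 0.00391, adjusted p = 0.00586 in the same permutation test). The exception was F0 CD 3, in which repeat-free distal regions were detected at 34.3%, the CA or TG run class at 32.4% and the other repeat class at 34.3%.

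Peak height differed in the same direction. Fold enrichment is the pileup at a summit over the local background that the peak caller estimated. The median fold enrichment of detected repeat-free distal regions was 3.51, 4.05, 3.48, 3.89, 3.67 and 3.76 in F0 CD 1 to 6 and 3.72, 4.27, 4.17 and 3.61 in F0 WD 1 to 4. It was below that of the CA or TG run class in 10 of 10 libraries, by a mean difference of -0.40 (SD 0.162; exact sign-flip permutation p = 0.00195, the smallest that 10 libraries allow, adjusted p = 0.00586). It was also below that of the other repeat class in 10 of 10 libraries (mean difference -0.215, SD 0.112, permutation p = 0.00195, adjusted p = 0.00586). Ranked by p-value within each library's own peak list, the median repeat-free distal peak stood 18.4 percentage points further down the list than the median CA or TG run peak (SD 4.80, 10 of 10 libraries, permutation adjusted p = 0.00586) and 11.2 points further down than the median peak with other repeats (SD 5.75, 9 of 10 libraries, with no difference in F0 CD 3; permutation adjusted p = 0.00586). All classes shared each library's depth and list length. The background is local to each summit and was not compared between classes.

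The size of these differences depended on the recurrence required and on the peak threshold. Among regions found in at least 3 libraries the detection difference was -3.50 points against the CA or TG run class and -1.79 points against other repeats, and the fold differences were -0.14 and -0.04, none past the threshold (permutation adjusted p = 0.158, 0.246, 0.141 and 0.320). With peaks of q under 0.001 the detection differences were -4.27 and -3.13 points (both permutation adjusted p = 0.0967).

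No difference from repeat-free intronic regions was detected. Detection differed from that of the 1412 by 0.563 points (SD 1.72; 5 libraries higher and 5 lower; permutation adjusted p = 0.380), median fold by 0.0375 (SD 0.135; permutation adjusted p = 0.438) and rank by -1.67 points (SD 3.88; permutation adjusted p = 0.276). Without F0 CD 4 the rank difference was -3.46 points and passed the threshold (permutation adjusted p = 0.0176). The detection difference of single libraries ranged from -1.76 to 3.50 points. The smallest mean difference over libraries that the test could have detected was not worked out. When only regions more than 10 kb from a start were used, the detection and fold differences changed sign, to -0.394 points and -0.0180, and detection also did so, to -0.0529 points, without the regions that have near-identical copies.

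**Figure D2:**
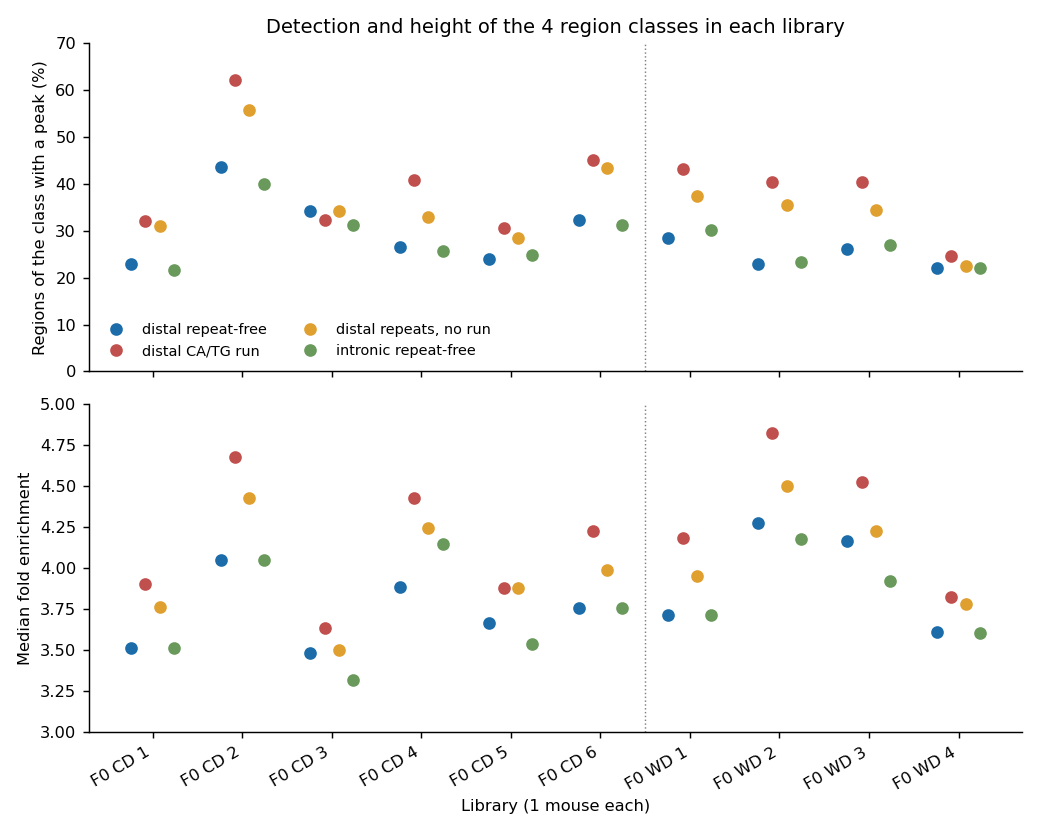
The upper panel plots the percent of regions of each class with a peak and the lower panel the median fold enrichment of those peaks, for each of 10 libraries (x axis; F0 CD left of the dotted line, F0 WD right), with 1 coloured point per class. Repeat-free distal regions sit beside repeat-free intronic regions and below both repeat classes for fold in 10 of 10 libraries and for detection in 9 of 10.

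Sequence inside the regions was examined next, because masking removes known repeats but not every repeated pattern. For a window of 200 bp at the strongest summit, the self-match was defined as the highest percentage of bases equal to the base a fixed number of positions further on, over shifts of 2 to 100 bp. The median self-match of the repeat-free distal regions was 37.3%, close to the 35.4% of 749 flanking windows 1 kb away that were themselves under 10% masked. The upper part of the distribution was different. A self-match of at least 50%, a threshold chosen after the values were seen, was present in 343 regions (31.2%) and in 32 of the flanking windows (4.27%). Repeat-free intronic regions had 29.6%. In the 343 self-matching regions the best shift had a median of 34 bp, with 12 regions under 10 bp, 190 from 10 to 40 bp and 141 over 40 bp. The best shift can be a multiple of the smallest unit.

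Self-matching regions recurred more often. Among regions found in 2 libraries, 17.7% had a self-match of at least 50%. This share was 43.7% for 3 libraries, 69.6% for 4, 77.5% for 5, 83.3% for 6, 92.9% for 7 and 90.5% for 8, and it was 78.6% for 9 and 57.9% for 10. Read the other way, 148 of the 343 self-matching regions (43.1%) were found in at least 4 libraries, against 47 of the 756 other regions (6.22%). In every library the self-matching regions were detected more often, at 25.7 to 60.3% against 16.0 to 36.0% for the others. They were also wider, with a median of 389 bp against 328 bp, and had a median best fold enrichment of 4.69 against 3.96. Width is that of the merged peaks and the best fold is the highest over libraries, so both can rise with recurrence. The median width of repeat-free distal regions was 315 bp in 2 libraries and 608 bp in 8. Width and best fold are therefore not results separate from recurrence. Repeat-free intronic regions showed the same order, with a self-matching share of 17.4% in regions found in 2 libraries and 72.9% in regions found in 4. These counts describe a division made after the values were seen, so no test of them is given. With the self-matching regions of every class left out, the detection difference from the CA or TG run class was -0.557 points (permutation adjusted p = 0.906), against -10.9 points with them. That setting uses the same division and was added after seeing the data, so its p-values are descriptions only. It removes 4377 of the 5060 regions of the run class, in which the run itself raises the self-match. How much of the class difference goes with self-match was not tested. In the same setting the fold and rank differences from that class were -0.20 and 11.0 points, and detection differed from that of the other repeat class by -3.74 points (permutation adjusted p = 0.00703, 0.00439 and 0.00439).

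**Figure D3:**
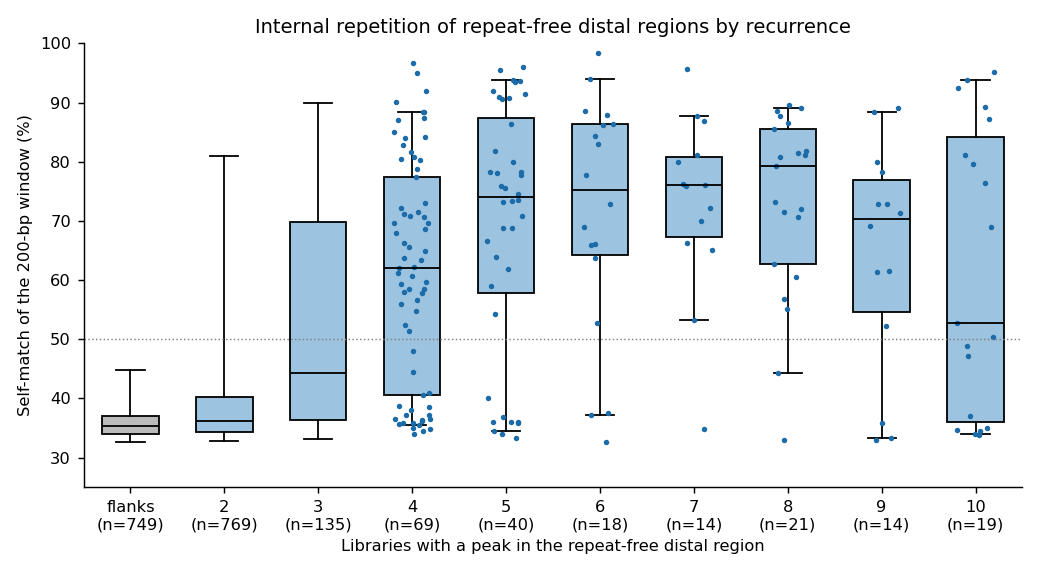
The self-match of the 200-bp summit window (y axis, percent) is shown for flanking windows 1 kb away and for repeat-free distal regions by the number of libraries with a peak (x axis, 2 to 10, n under each). The median rises from 36.1% in 2 libraries to 79.3% in 8 libraries and is 52.8% in 10.

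The strongest repeat-free region lay at chr2:3964398-3964714, 35259 bp from the long noncoding RNA gene Gm13191 and 53003 bp from the start of Frmd4a, which encodes a scaffold protein of epithelial polarity. Its fold enrichment in F0 CD ranged from 26.9 to 30.4 with a median of 28.9, and in F0 WD it was 30.4, 29.5, 31.8 and 28.4. Both groups overlapped throughout. Its summit window repeated a unit of 42 bp nearly without change, as the Frmd4a sequence above shows, with a self-match of 69.0%, and 6.94% of its bases were masked. Its median rank over the 10 libraries was 0.0672% from the top of the list.

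The next regions of this kind also matched themselves at one shift. The region at chr12:105436020-105436320, 17536 bp from D430019H16Rik, had a fold enrichment of 15.4 to 24.1 in F0 CD (median 20.4) and of 17.5, 20.4, 22.1 and 16.2 in F0 WD, with a best shift of 87 bp and a self-match of 50.4%. A pair of regions separated by 76 bp lay near Tmem125, a gene for a membrane protein. The first, chr4:118547931-118548391, had 7.95 to 11.2 in F0 CD (median 10.1) and 11.3, 9.71, 7.89 and 10.4 in F0 WD, and the other, chr4:118548468-118548823, had 10.3 to 13.9 (median 11.7) and 11.6, 13.2, 14.2 and 10.5. Their self-matches were 93.8 and 87.2% at shifts of 88 and 44 bp, so that the best shift of one was a multiple of that of the other. Outside its own bounds the first had 12 near-identical alignments, all within 1 Mb, at up to 96.3% identity. These were not merged into separate sites, so several can lie on the same tandem array. F0 CD and F0 WD overlapped in all 3 regions.

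High self-match also occurred in regions of moderate height. The region chr3:142191538-142191968 lay 22113 bp from Bmpr1b, a receptor for bone morphogenetic proteins, and held no CpG. It had 20 to 36 reads at its summit in F0 CD (median 29.5) and 40, 25, 19 and 40 in F0 WD, and its self-match of 95.1% at 36 bp was the highest among the 19 regions found in all 10 libraries. At chr17:72866451-72867307, 25520 bp from Ypel5, the best shift was 14 bp and the reads were 18 to 27 (median 21.5) and 26, 18, 25 and 19. At chr17:34280568-34281309, 6468 bp from H2-Aa, which encodes a class II histocompatibility chain, the best shift was 9 bp and the reads were 16 to 28 (median 20) and 27, 19, 19 and 16. In each of the 3 the reads of the groups overlapped.

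**Figure D4:**
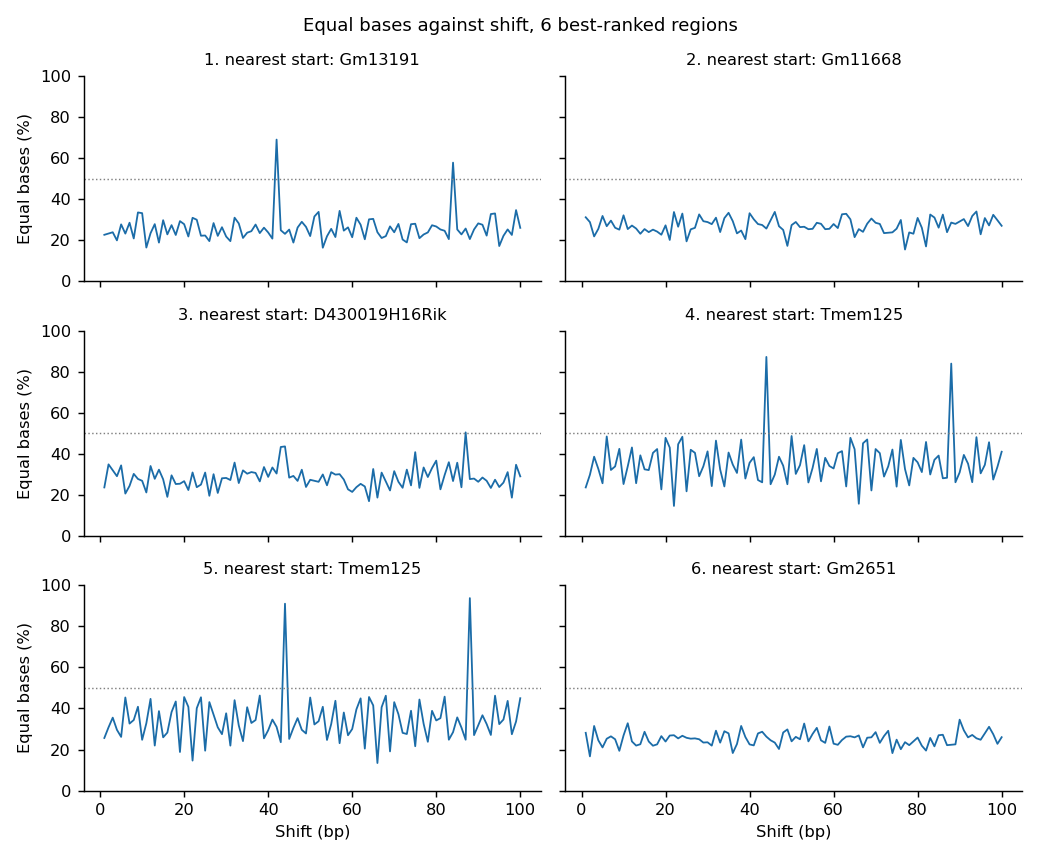
For the 6 best-ranked regions present in all 10 libraries, the percentage of bases equal to the base further on (y axis) is plotted against the shift in bp (x axis), with the dotted line at 50%. The regions near Gm13191 and Tmem125 show sharp peaks at 42, 44 and 88 bp, and those near Gm11668 and Gm2651 reach 34.0 and 34.5% at their best shift.

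Of the 19 regions found in all 10 libraries, 11 had a self-match of at least 50%. The other 8 comprised 4 with near-identical copies elsewhere in the genome and 4 without. The copies were searched in the assembled genome, and the regions were not compared with ribosomal DNA. The first of the latter was chr11:109011547-109012175, 3896 bp from the pseudogene Gm11668 and 67926 bp from Axin2, a negative regulator of Wnt signalling. It held 35 CpG, and its fold enrichment was 14.7 to 17.7 in F0 CD (median 15.6) and 17.0, 16.9, 17.4 and 15.4 in F0 WD. The next was chr2:22744739-22745070, 29024 bp from Apbb1ip, with 22 CpG and 30 to 60 summit reads in F0 CD (median 41.5) against 69, 26, 28 and 55 in F0 WD. The groups overlapped in both regions. The other two, near Snx16 and Phactr1, had self-matches of 47.2 and 48.9%, just under the threshold.

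CpG-rich members were few. A region was called CpG-island-like when it was at least 200 bp wide, had more than 50% G or C and an observed to expected CpG ratio above 0.6, and 14 of the 1099 (1.27%) met this. CpG islands cover many gene starts and are mostly unmethylated, and of the regions in the promoter window of the same consensus list 3.82% met the rule. So did 2.79% of distal regions with a CA or TG run, 0.911% of those with other repeats and 1.70% of repeat-free intronic regions. Of the 14, the 4 found in most libraries were the regions near Axin2, Apbb1ip and Samd9l and a region near Mex3c. The Mex3c region was found in 6 of 6 F0 CD and 3 of 4 F0 WD libraries with 12 to 19 summit reads. Whether the Axin2, Apbb1ip and Samd9l regions resemble ribosomal DNA, which is CpG-rich and present in many copies, was not tested. The Samd9l region, chr6:3201328-3201659, 6210 bp from the pseudogene Gm2651, held 25 CpG at an observed to expected ratio of 1.23. Its fold enrichment was 9.26 to 15.4 in F0 CD (median 12.9) and 15.5, 9.78, 13.4 and 12.6 in F0 WD.

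Copies elsewhere in the genome matter here, because a read from one copy can be placed on another. A near-identical copy, defined as at least 90% identity over at least 80% of the region, was found for 63 regions (5.73%), and none matched the mitochondrial genome. The number of copies of a region is a number of alignments, which were not merged into separate sites. Repeat-free intronic regions had 5.67%. Of the 47 regions without a self-match of 50% that were found in at least 4 libraries, 18 had such a copy, whereas 5 of the 148 self-matching ones did. The Samd9l region was 97.0% identical over 332 bp to the transcript of the noncoding gene AY036118, annotated elsewhere, and 9 of the 1099 regions resembled an annotated transcript at 85% identity or more over at least 100 bp.

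One stretch of chromosome 5, from 14903930 to 15673714, held 11 repeat-free distal regions, and each of the 11 had such a copy. It lies among the Speer genes, a family of spermatogenesis-associated glutamate-rich proteins, and predicted genes. Of the 11, 8 were found in at least 4 libraries and 4 in at least 9, and none had a self-match of 50%. The region chr5:15043593-15044057, found in all 10, had 17 to 47 summit reads in F0 CD (median 36) and 20, 30, 28 and 29 in F0 WD, and 6 copies at up to 96.6% identity. The part in this signal of reads that belong to other copies was not tested. By windows of 100 kb, chr5:14900001-15000000 held 7 regions, chr3:147500001-147600000 held 4 and chr5:15000001-15100000 was 1 of 10 windows that held 3, while 928 windows held 1.

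Known factor motifs were searched on both strands in the 200-bp summit windows. The CCAAT box (letters CCAAT) was found in 18.9% of repeat-free distal regions, 9.35% of all autosomal consensus regions and 27.5% of the flanking windows. The E-box CAGCTG was found in 9.74, 4.22 and 12.4%, and the AP-1 motif TGANTCA in 5.28, 2.18 and 7.34%. Over all 1099 regions these 3 motifs were therefore more frequent than among all consensus windows and less frequent than in nearby sequence. In self-matching regions CCAAT was found in 7.87%, CAGCTG in 3.79% and TGANTCA in 2.62%. In the other repeat-free distal regions the shares were 23.9, 12.4 and 6.48%. For CAGCTG the share in these other regions was level with that of the flanks. The other E-box, CACGTG, was found in 3.003% of repeat-free distal regions, 5.16% of all autosomal consensus regions and 2.80% of the flanking windows. The Sp1 GC box (GGGCGG) was found in 3.09, 1.39 and 2.14%, the ZFP57 core (TGCCGC) in 1.82, 0.656 and 1.60% and the ETS core (CCGGAAG) in 0.546, 0.224 and 1.20%. The cAMP response element TGACGTCA was found in 1 region and the NRF1 core GCATGCGC in 0. The CTCF core, searched as a pattern of 12 positions, was found in 0 of 1099 windows, 0.0407% of all autosomal windows and 0.401% of the flanks. CTCF is the main insulator protein of vertebrates, and these letters missing from a window of this length say nothing of its binding.

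Short words gave a different picture. Among all 2080 words of 6 bases, counted together with their reverse complements, those most in excess over the flanks were related to each other and were picked after the values were seen. ACACTG was present in 34.2% of windows against 18.3% of flanks, CTGTGC in 33.6 against 18.3%, ACTGTG in 35.0 against 21.2% and CTGTAC in 20.7 against 7.21%. In repeat-free intronic regions ACACTG was at 35.8%, and in distal regions with a CA or TG run at 13.2%. The words most in deficit were rich in A on one strand, such as AGGAAA at 8.74 against 23.1% and AGAAAA at 7.55 against 20.7%.

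Of the 10 words most in excess, 2 contain CACTG or its reverse complement CAGTG, namely ACACTG and ACAGTG, the latter in 34.8% of windows against 22.8% of flanks. This shorter word was chosen after the values were seen. Windows of repeat-free distal regions held on average 1.94 of these 5-base words on either strand, as did those of repeat-free intronic regions (1.94), against 0.928 in flanks, 0.339 in distal regions with a CA or TG run and 0.646 in distal regions with other repeats. Self-matching regions held 3.41 and the others 1.27. A tandem unit multiplies any word within it, so the share of windows with at least 1 word is also given, and it was 58.9% of self-matching regions, 70.8% of the others and 54.9% of flanks. The windows also had more G and C than the flanks, 51.4 against 47.1% on average. How far base composition accounts for the word counts was not tested.

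The word was densest at the summit, but it had been picked from an excess in summit windows over windows 1 kb away. A higher density at the summit was favoured by that choice and is not a separate result. In self-matching regions its density was 17.7 per kb just before the summit and 5.48 and 5.07 per kb at 475 bp on either side. In the other regions it was 6.46 and 6.88 per kb beside the summit and 3.33 and 3.65 per kb at the same distances. Repeat-free intronic regions showed the same rise, with 10.4 per kb just before the summit and 4.42 and 3.92 per kb at 475 bp. The G and C content followed the same course in self-matching regions, from 51.8% beside the summit to 44.4 and 44.6% at 475 bp.

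**Figure D5:**
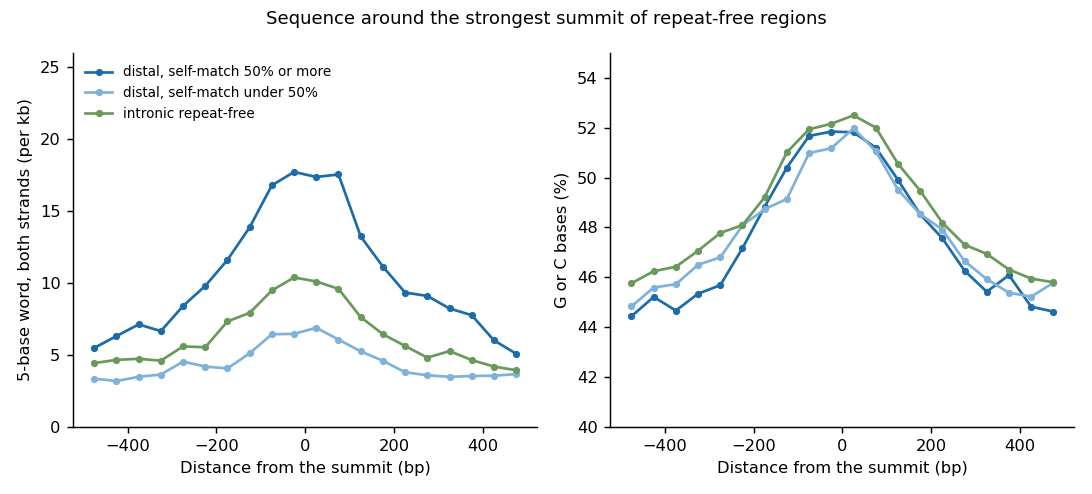
The left panel plots the density of CACTG or its reverse complement (y axis, per kb). The right panel plots the percentage of G or C bases (y axis). Both use bins of 50 bp against the distance from the strongest summit (x axis, bp). Each has 1 line for self-matching, 1 for other repeat-free distal and 1 for repeat-free intronic regions. Both quantities are highest at the summit, with 17.7 words per kb in self-matching and 10.4 in intronic regions.

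Genes near the regions were read from lists of families and pathways. The nearest protein-coding gene belonged to a developmental transcription factor family for 48 regions (4.37%, against 5.06% of all distal regions), was an olfactory or vomeronasal receptor for 17 (1.55 against 1.11%), a zinc finger protein gene for 21 (1.91 against 1.48%), a protocadherin, cadherin or axon guidance gene for 16 (1.46 against 2.73%), an imprinted gene for 7 (0.637 against 0.332%) and a gene of energy metabolism or insulin signalling for 3 (0.273 against 0.521%). None of these regions was called different between diets by the test given further on. That test called 0.553% of all consensus regions towards F0 WD and 0.468% towards F0 CD. Most lists had a median of 2 libraries per region, and a call needs at least 3, so the lack of calls is not a result about the lists. The shares of regions near listed genes are descriptions, and a nearest gene is not known to be a target.

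A self-match of at least 50% was present in 11 of the 48 regions near developmental factors, 2 of the 17 near receptors, 5 of the 21 near zinc finger genes, 5 of the 16 near adhesion and guidance genes, 4 of the 7 near imprinted genes and 0 of the 3 near metabolic genes. The regions named next are those found in most libraries within a list. Near Irx4, a homeobox gene, chr13:73122831-73123268 was found in 8 libraries with a self-match of 81.5% at 16 bp. Near Mef2c, a MADS-box factor gene, chr13:82848273-82848731 was found in 7 with a self-match of 95.7% at 37 bp. Near Epha7, an ephrin receptor gene, chr4:28176821-28177118 was found in 8 at a self-match of 60.5%. The region chr17:23518796-23519484 near Vmn2r117, a pheromone receptor gene, was found in 9 libraries with a self-match of 35.8%. Near Zfp985, chr4:147586509-147587478 was found in 7 and had 2 copies. Among the energy metabolism genes, the region near Npy, which encodes an appetite-promoting neuropeptide, was found in 2 libraries with 17 and 13 summit reads, and that near Mc4r, a receptor that restrains feeding, in F0 WD 1 and F0 WD 2 with 16 and 13.

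Among imprinted genes, of which only 1 parental copy is expressed, the most recurrent region lay at chr6:4762286-4762619, 14880 bp from Peg10, a paternally expressed gene. It was found in 5 F0 CD and 4 F0 WD libraries, with 24 to 36 summit reads in F0 CD (median 32, no peak in F0 CD 3) and 24, 33, 21 and 30 in F0 WD, and its sequence is shown above with a best shift of 19 bp. A pair of regions lay between Dlk1 and Meg3, whose imprinting is set by methylation between them. The region chr12:109526339-109526952 was detected in 3 libraries, 2 of F0 CD and 1 of F0 WD, and held 21 CpG. The region chr12:109527193-109527663, 13338 bp from the Meg3 start and 67350 bp from that of Dlk1, held 24 CpG. It had 13, 18 and 16 summit reads in F0 CD 2, 5 and 6 and 15 in F0 WD 2, with no peak in the other 6 libraries.

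The comparison of diets asked whether the repeat-free distal regions as a set, or any single one, differed between F0 WD and F0 CD sperm. As a set they were detected at 30.6% ± 7.82 in F0 CD (SD, n = 6) and 24.9% ± 2.96 in F0 WD (SD, n = 4), a difference of -5.71 percentage points that was within the spread of the F0 CD libraries (exact permutation test over 210 regroupings, two-sided, p = 0.214, adjusted over 3 tests p = 0.357). Their share of all consensus regions detected in a library was 3.60% ± 0.533 against 3.32% ± 0.520, a difference of -0.288 points (SD, n = 6 and 4; exact permutation p = 0.452, adjusted p = 0.452). The median fold enrichment was 3.72 ± 0.219 against 3.94 ± 0.328, a difference of 0.217 (SD, n = 6 and 4; exact permutation p = 0.238, adjusted p = 0.357). None of the 3 measures passed the threshold.

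For single regions, the number of libraries with a peak was compared by Fisher's exact test over all 24763 consensus regions. At an unadjusted p under 0.05, 4 repeat-free distal regions (0.364%) were called towards F0 WD and 1 (0.0910%) towards F0 CD, while 0.553% of all consensus regions were called towards F0 WD and 0.468% towards F0 CD. After Benjamini-Hochberg adjustment over all regions none passed, with an adjusted p of 1 throughout. The smallest p that 6 against 4 libraries allow is 0.00476 in this exact test. A call needs a peak in at least 3 libraries towards F0 WD and in at least 5 towards F0 CD. Of the 330 repeat-free distal regions with at least 3 libraries 1.52% were called, against 1.88% of 13445 consensus regions. These shares were not above the background. With 1 library left out, 2 to 7 regions were called towards F0 WD (2 without any one F0 WD library, 7 without F0 CD 2) and 1 to 5 towards F0 CD (5 without F0 CD 3, 4 or 6). With mid-p values, 5 were called towards F0 WD and 8 towards F0 CD, so the balance between directions was not stable. Because the directions need different numbers of libraries, that balance is not read as a lean of the regions.

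The region with that smallest p was chr12:32895800-32896121, 17495 bp from the noncoding gene Gm47948 and 57770 bp from Sypl, a synaptophysin-like membrane protein gene. It had no peak in the 6 F0 CD libraries and 12, 13, 14 and 20 summit reads in F0 WD 1 to 4, with fold enrichments of 3.02, 4.50, 3.95 and 4.46 (Fisher's exact p = 0.00476, adjusted p = 1). Its sequence, shown above, has a self-match of 80.8% at its best shift of 70 bp. In the same 4 libraries the weakest called summit had 11, 9, 9 and 12 reads, and the median summit of a repeat-free distal region had 16, 14, 13 and 17. A missing peak is not an absence of reads.

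The other 3 regions called towards F0 WD had a peak in 3 of 4 F0 WD libraries and in none of 6 F0 CD libraries (each Fisher's exact p = 0.0333, adjusted p = 1). The region chr5:79436877-79437167, 3030 bp from the pseudogene Gm43234, had 16, 11 and 19 reads in F0 WD 2, 3 and 4. The region chr15:87849042-87849358, 53099 bp from Mir6393, had 13, 17 and 19 in F0 WD 1, 2 and 4. The region chr13:69679975-69680331, 49235 bp from Nsun2, an RNA methyltransferase gene, had 17, 12 and 15 in F0 WD 1, 2 and 3. All 3 were below a self-match of 50%.

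Towards F0 CD, chr11:6869890-6870765, 7586 bp from the pseudogene Gm11984, had 22, 9, 24, 12 and 16 reads in F0 CD 1 to 5 and no peak in F0 CD 6 or in any F0 WD library (Fisher's exact p = 0.0476, adjusted p = 1). Its window, shown above with the words CACTG and CAGTG in capitals, had a self-match of 40.1%. With peaks of q under 0.01, 0 repeat-free distal regions were called towards F0 CD.

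The libraries differed in depth as far as the files show it. They held 13366 to 29532 peak intervals, and the lowest local background, which follows depth, was 2.11 to 4.42 reads. A whole number of reads, within 0.001, was recovered from the fold enrichment and p-value for 182970 of 183672 summits, those with a p-value too small to be solved being left out, and the weakest called summits had 9 to 13 reads. At the promoters of 12 spermatid and sperm genes no library had a peak. Such peaks were found at 2 of 10 epididymal genes, 2 of 8 immune genes and 3 of 6 testicular germ cell genes, in at most 2 libraries each. Promoter peaks therefore did not mark the labelled cell type.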

How the data were processed

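ATAC-seq of cauda sperm was deposited as 1 peak list per library. Per the submitters' processing notes, reads were processed with Trim Galore 0.6.10, Bowtie2 2.4.5, SAMtools, Picard 2.24.0 and MACS2 2.2.7.1 on mm10 (GRCm38). The authors' MACS2 lists give for each summit a display score, a fold enrichment over local background, and the −log10 of its p-value and q-value, as deposited, with every peak at q under 0.05. The lists hold no read counts per region, so no count model across regions was fitted, and the score was not analysed.

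Intervals were merged (overlap of 1 bp) and classed with GENCODE M21 transcripts and the lower-case bases of the RefSeq GRCm38.p6 genome, from which the printed sequences also come. The reads at a summit were solved from its fold enrichment and −log10 p-value (under 60) as a Poisson tail. Detection was compared between diets by Fisher's exact test per consensus region with Benjamini-Hochberg adjustment over all 24763. Library-level measures were compared by exact permutation tests, between diets over 210 regroupings and between classes by 1024 sign flips, with p-values adjusted over 3 and over 9 tests. Libraries labelled as separate replicates were taken as separate mice. Near-identical copies were searched with BLAST+ 2.17.0. Tests were run with scipy 1.17.1 in Python 3.11.15 on tables held in pandas 2.3.3 and numpy 2.4.6, the genome was read with pysam 0.24.0, plots were drawn with matplotlib 3.10.9, and the statistics were tested on simulated data.

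The named regions are the 6 best-ranked of those found in all libraries, up to 5 called per direction, the 4 CpG-island-like and the 3 copied regions found in most libraries, the 3 farthest from a start, 3 windows with most regions (the last tied with others), and 2 per gene list. No region had the CTCF core, for which 4 would have been named. The regions near Bmpr1b, Ypel5, H2-Aa, Snx16 and Phactr1, the 6-base words and the self-match threshold were chosen after their values were seen. The class of regions and all lists were chosen with earlier results of these data known. Replicate numbers did not pair the samples. Alternatives changed the peak threshold, merging, library minimum, masked share, start distance, number of peaks, test, copies and self-matching regions, and left out each library in turn. Precision is limited by the 9 to 13 reads of the weakest called summits.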

Additional observations from a re-analysis of the deposited data

Results flagged for a closer look

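Of 28 groups of libraries whose highest and lowest values were examined by Dixon's ratio, 2 held a library far from the rest, and chance alone gives about 1 in 20 groups. Both were F0 CD 3. The repeat-free distal regions made up 4.66% of the consensus regions detected in it, against 3.29 to 3.62% in the other 5 F0 CD libraries. Its median repeat-free distal peak had the same rank as its median distal peak with other repeats, a difference of 0 points, whereas the mean difference over the 10 libraries was 11.2 points.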

How the results depend on the processing

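Of 126 values recomputed without leaving out a library, 104 were unchanged. For tested differences this means the same direction and side of the threshold. Counts of called regions had to stay within a set factor of the main count. The self-matching share had to stay within its binomial confidence interval. The cause of the changes below was not tested. The count of regions called towards F0 CD (1) was 0 with peaks of q under 0.01 or 0.001, with intervals merged by a share of the shorter one instead of 1 bp, over 10 kb from a start and with the 13366 best-ranked peaks of each list, 2 under 20% masked, and 8 with mid-p values. The count towards F0 WD (4) was 1 under 1% masked. Detection against the CA or TG run class was -4.27 points at q under 0.001, -3.50 in at least 3 libraries and -0.557 without self-matching regions of any class (a setting added after seeing the data), and its fold difference in at least 3 libraries was -0.14. Against other repeats detection was -3.13 points at q under 0.001 and -1.79 in at least 3 libraries, with a fold difference of -0.0397 there. These 7 lost the threshold. Against intronic regions the sign turned over 10 kb from a start (detection -0.394, fold -0.0180) and without copied regions (detection -0.0529). The self-matching share was 39.4% at a threshold of 40% and 25.8% at 60%, both added after seeing the data.

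With 1 library left out, the count towards F0 WD was 2 to 7 (2 without any one F0 WD library, 7 without F0 CD 2) and towards F0 CD 1 to 5 (5 without F0 CD 3, 4 or 6, 3 without F0 CD 2, 2 without F0 CD 5 or F0 WD 2). Diet differences were -7.46 to -3.25 points for detection, -0.592 to -0.0890 for the share and 0.105 to 0.355 for fold, with none past the threshold. Against the CA or TG run class they were -11.0 to -10.05, -0.420 to -0.362 and 16.4 to 19.1 for detection, fold and rank, against other repeats -7.48 to -6.74, -0.229 to -0.188 and 9.72 to 11.8, and against intronic regions 0.268 to 1.15, 0.00301 to 0.0810 and -3.46 to -0.845.

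Libraries with the same replicate number did not deviate together (correlations -0.00546, 0.0356, -0.00722 and -0.0109), so the numbers were not read as pairs. With the replicate number as a block over replicates 1 to 4, detection differed by -6.94 points, the share by -0.352 points and fold by 0.210. None of these passed the threshold, which 4 pairs cannot reach in a sign-flip test. The exact test of single regions called 0 in either direction, and 4 pairs cannot reach the threshold there either, so that count was fixed in advance.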
